A study of Sus scrofa with 12 samples.

Results

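Muscle of 3 female pigs with high drip loss was compared with muscle of 3 female pigs with low drip loss. They are high drip replicates 1, 2 and 3 (animals 199, 82 and 204) and low drip replicates 1, 2 and 3 (animals 205, 83 and 234), and they make up 6 of the 12 animals of the series. Members were chosen by replicate number and not by any measured value, and all 6 are recorded as female. The high drip animals were 179, 173 and 181 days old (177.7 ± 4.16, SD, n = 3) and the low drip animals 181, 173 and 189 days (181 ± 8.00, SD, n = 3). The labels name the tissue as muscle and the drip level as high or low, with no treatment, breed or measured drip value. The other 6 animals, high and low drip replicates 4 to 6, are males aged 167 to 186 days and are used here only where the sexes are set side by side. The series was made to study pig chromosome regions that hold quantitative trait loci for the water holding capacity of meat.

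Drip loss is the fluid that meat gives up under its own weight after slaughter. Muscle that enters slaughter with much glycogen, or that breaks glycogen down fast, makes lactate and acid after death, and acid draws the filament lattice together and pushes water out. PRKAG3 encodes a muscle-specific regulatory subunit of AMP-activated kinase, and PHKG1 the catalytic subunit of phosphorylase kinase, and variants of both genes are known to affect glycogen and meat quality in pigs. Immediate early genes such as FOS and EGR1 are switched on within minutes of stretch, injury, calcium entry or growth signals and need no new protein for it, so their RNA level follows the last events before a tissue is frozen. ALB encodes albumin, the main plasma protein, which is made in liver and hardly at all in muscle.

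The 6 whole-genome count tables held 9174265 to 12622043 reads assigned to features (median 9304463), with high drip replicate 2 the deepest, and the tables of the studied chromosome regions held 150139 to 199407. Between 13183 and 14047 features had a count. Of the whole-genome tables, 3 are filed under another sample than the animal number in their name, those of high drip replicate 2 and low drip replicates 1 and 2. The region tables carry matching numbers. By number, 737 to 745 of the 770 features present in both tables had identical counts in the 6 animals, against at most 167 for any other animal, so every table was taken by number. Under the filing record high drip replicate 2 and low drip replicate 2 would exchange drip levels, while low drip replicate 1 would stay low, and results are given both ways where that matters. Muscle identity matched the label: 12 of 23 skeletal muscle markers were named in the tables, all 12 passed the low count filter, and they summed to 192400, 200100 and 222900 CPM (reads per 1000000 assigned reads) in the high drip animals and to 189600, 172400 and 226700 in the low drip animals. All CPM values below were scaled by TMM factors on 1 scale for all 12 animals. Correlation of log2 CPM was 0.981 to 0.986 between animals of a group and 0.979 to 0.986 between groups, so these ranges overlapped. Whether the animals sort by drip level was not tested.

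No transcript passed the test. Of 10080 features tested with edgeR's quasi-likelihood test, 0 (0%) had an adjusted p under 0.05, the smallest being 0.536. At an unadjusted p under 0.05 there were 284 (2.82%), fewer than the 504 that the threshold alone gives, with 132 higher (1.31%) and 152 lower (1.51%) in high drip. limma voom also called 0, with 266 at an unadjusted p under 0.05, while DESeq2 called 13, of which 9 were higher and 4 lower. The levels of all 3 high drip animals lay above those of all 3 low drip animals for 305 features (3.03%) and below them for 383 (3.8%), 688 in all (6.83%). Without TMM factors this split was 184 above and 448 below. These shares are the background for every count given below. With 3 animals a side an exact permutation test cannot go below a two-sided p of 0.1, so single values are described by their levels and by the edgeR fit. Groups that do not overlap are the outcome with that p, so random labels would set apart a share of about 0.1 of features. The 6.83% seen lies below that share, and non-overlap of a single gene is therefore a description only. On counts simulated from these 6 libraries the test called 98.5% of 4-fold changes, 52.2% of 2-fold and 5.97% of 1.5-fold changes, and 12 of its 116 calls were false. In the simulation 1.5-fold changes were thus mostly not detected. In the animals EGR1 (log2 fold -2.26) and ALB (7.16) were not called either. The simulated shares therefore do not tell how often a difference of a given size would be called in these animals.

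**Figure D1:**
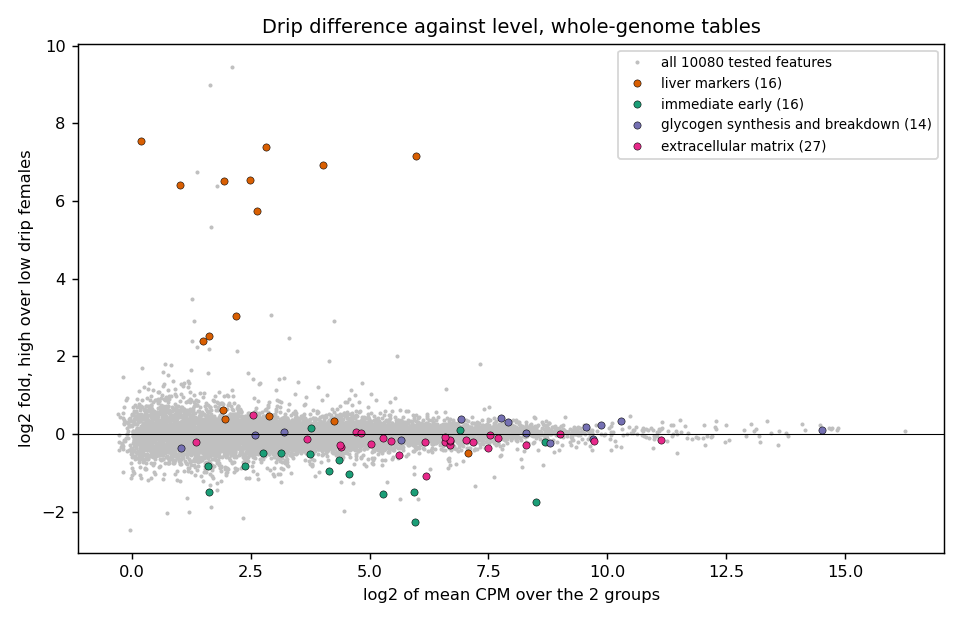
Each grey point is 1 of the 10080 tested features, with the log2 of its mean CPM over the 2 female groups on the horizontal axis and the log2 fold of high over low drip females on the vertical axis. Coloured points are the tested members of 4 gene lists: liver markers reach folds above 7, immediate early genes lie mostly below 0 down to -2.26, and the glycogen and extracellular matrix lists stay close to 0.

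Transcripts of liver-made plasma proteins were the features that stood farthest apart. In the order of the replicates, ALB (ENSSSCG00000008948) was at 31.0, 311 and 35.0 CPM in the high drip females and at 1.53, 0.706 and 0.352 CPM in the low drip females. All triplets of values below are in that order. Every high drip female was above every low drip female, and replicate 2 was far above the other two. The log2 fold was 7.16 ± 1.11 (SE), with an edgeR adjusted p of 0.536 (unadjusted 8.6e-05). It was 5.23 without high drip replicate 2, where edgeR's adjusted p was 0.0028. So ALB transcripts coincided with the drip label in these 6 animals, and a difference that goes with drip cannot be told apart here from one that goes with liver transcripts.

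Other liver products had the same order. TF, the plasma iron carrier transferrin, was at 3.21, 86.7 and 6.81 CPM in high drip and at 0.437, 0.202 and 0.117 in low drip. APOC3, an apolipoprotein of triglyceride-rich particles, was at 6.85, 25.8 and 3.67 against 0.328, 0.302 and 0 CPM. The low drip values of TF rest on 7 reads in all and those of APOC3 on 6. Ratios of summed counts were 151 for TF (95% exact interval 73.2 to 377) and 62.9 for APOC3 (28.7 to 172). These intervals pool the reads of the 3 animals and cover counting error only, not the spread between animals. Without high drip replicate 2 the log2 fold fell from 6.93 to 4.24 for TF and from 5.74 to 4.53 for APOC3.

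Fetuin-A (AHSG), the fibrinogen chains FGB and FGG, AMBP and the vitamin D binding protein GC each had 1 to 3 reads in the 3 low drip libraries together. AHSG had 26, 462 and 31 reads in high drip against 1, 1 and 0, a ratio of 228 (62.7 to 1886). FGG had 25, 354 and 27 against 1, 2 and 0, a ratio of 119 (40.4 to 578). These ratios too pool reads, most of them from high drip replicate 2. Without that animal the log2 fold fell from 7.39 to 5.17 for AHSG and from 6.54 to 4.54 for FGG. HRG, the plasma histidine-rich glycoprotein, had 23, 278 and 18 reads against 0 in all 3 low drip animals. Its high drip mean was at least 24.7-fold higher, taking 3 reads per library (0.352 CPM) as the floor. That mean rests on replicate 2 at 21.6 CPM, with replicates 1 and 3 at 2.46 and 1.94 CPM. CYP2E1, a liver cytochrome P450, had 12, 51 and 15 reads against 0, and its high drip mean was at least 6.51-fold higher. RBP4, the retinol carrier, was at 2.68, 9.18 and 2.27 CPM against 1.09, 0.806 and 0.821, a smaller difference on a level that low drip muscle also had.

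Over the whole liver list, 31 of 39 markers were named in the tables and 20 of these lay higher in every high drip female than in any low drip female, 0 lay lower and 11 overlapped. Of the 31, 29 were highest of all 12 animals in high drip replicate 2. A count was present for 29, 31 and 28 of them in the high drip females and for 21, 18 and 13 in the low drip females, and 7 had no read in any low drip female. Only 16 passed the low count filter, mostly through the high drip libraries, so the 10 of 16 that did not overlap and their median log2 fold of 4.38 (2.86 with CYP2E1 at its bound) describe the filter as much as the animals. ITIH4 went the other way in part, at 80.5, 87.6 and 165 CPM in high drip against 180, 60.9 and 227 in low drip, and muscle of all 12 animals held it. Under the filing record the ALB fold was -2.23 ± 1.71 (SE), because the animal with 311 CPM then counts as low drip. Of the 13 features that DESeq2 called in females, 6 were liver transcripts named above: TF, APOC3, FGB, FGG, HRG and CYP2E1. Without the filter on low counts edgeR called these 6 and also ALB, AHSG, AMBP and GC. With age as a term it called AHSG, HRG, APOC3, FGG and GC. The source of these transcripts was not tested.

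**Figure D2:**
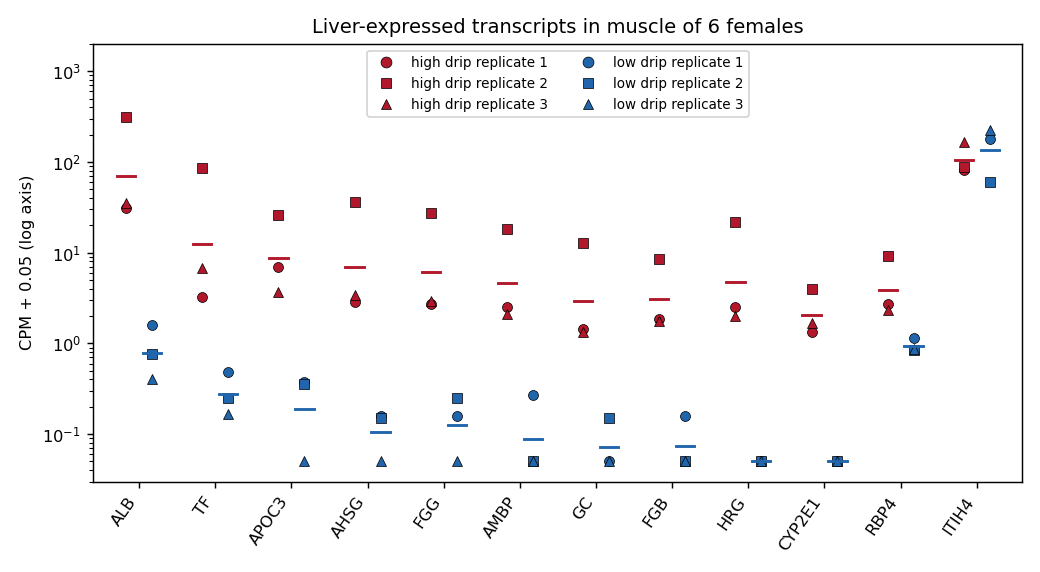
Points give CPM plus 0.05 on a log axis for 12 liver-expressed transcripts in the 6 females, with red for high drip, blue for low drip and the shape for the replicate; bars are geometric means of the 3 animals. High drip replicate 2 (red square) is highest for the first 11 transcripts, all low drip values of HRG and CYP2E1 sit at 0 CPM, and ITIH4 overlaps.

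Immediate early genes had the lowest median fold of all lists and, among the lists of function, the most members whose groups did not overlap. Of 26 genes in the list 18 were named, 16 were tested and 14 of these had a log2 fold below 0. The 3 high drip animals lay below the 3 low drip animals for 7 of the 16, against 3.8% of all tested features, and for 0 they lay above. At an unadjusted p under 0.05 there were 9 lower members, against 1.51% of all features, and 0 passed adjustment. The median log2 fold was -0.81, against 0.00 over all features.

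EGR1 (ENSSSCG00000014336), a zinc finger transcription factor, was at 29.8, 10.2 and 24.2 CPM in high drip and at 154, 45.0 and 107 CPM in low drip. The lowest low drip animal was above the highest high drip animal. Means were 21.4 ± 10.1 and 102 ± 54.7 CPM (SD, n = 3 each), the log2 fold was -2.26 ± 0.47 (SE) and the edgeR adjusted p was 0.632 (unadjusted 0.00084). FOS, a subunit of the AP-1 transcription factor, was at 135, 30.8 and 330 CPM against 676, 173 and 812. Here the groups overlapped, because high drip replicate 3 was above low drip replicate 2, and the log2 fold was -1.74 ± 0.74.

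CCN1 and CCN2 encode matrix-bound signalling proteins that respond to stretch and to YAP and TGF-beta signalling. CCN1 (ENSSSCG00000006940) was at 24.4, 21.0 and 51.1 CPM in high drip against 94.3, 91.9 and 85.2 in low drip, a narrow range in the second group. Its log2 fold was -1.49 ± 0.30 (SE), with an edgeR adjusted p of 0.536. CCN2 was at 12.2, 13.8 and 33.6 CPM against 65.8, 43.2 and 63.8, a log2 fold of -1.54 ± 0.36. For both genes high drip replicate 3 was the nearest to the low drip animals. DESeq2 called CCN1 (adjusted p 0.00214) and CCN2 (adjusted p 0.00951), and edgeR without the filter on low counts called CCN1 and EGR1.

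The other members that did not overlap were chosen for that after their values were seen. EGR2, related to EGR1, was at 2.68, 0.778 and 1.40 CPM against 6.01, 3.02 and 4.58. KLF4, a Krüppel-like transcription factor, was at 8.67, 8.95 and 18.7 CPM against 26.5, 22.1 and 21.8. IER2 was at 2.46, 2.57 and 1.51 CPM against 3.82, 3.83 and 3.99, and IER3 was at 5.03, 2.80 and 3.46 against 5.24, 6.86 and 7.74. The gap for IER3 was small, with high drip replicate 1 just under low drip replicate 1.

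Not all members of the list had this order. ATF3, a stress-induced factor, was at 221, 264 and 660 CPM against 502, 442 and 386, so that high drip replicate 3 held the highest value of all. SRF, the serum response factor that drives many of these genes, was at 136, 96.6 and 141 against 104, 85.2 and 157 CPM. JUNB, named after its values were seen, was at 26.3, 14.5 and 2.27 against 16.1, 10.4 and 12.7 CPM. The log2 folds of these 3 genes were -0.22 ± 0.36, 0.11 ± 0.24 and 0.15 ± 0.60 (SE), all within 1 SE of 0.

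Summed over the list the level was 648, 512 and 1342 CPM in the high drip females and 1747, 1034 and 1734 in the low drip females, so high drip replicate 3 reached the range of the low drip animals. Leaving out each animal in turn moved the median fold between -0.70 and -1.05. It was -0.22 under the filing record, where 0 of the 16 members did not overlap, and -1.99 in a fit of all 12 animals with log2 ALB as a term. ALB coincided with drip in the females, so that fit cannot separate ALB from drip in them. In the males the median was -0.17 and the groups of all tested members overlapped, and the list summed to 1971, 688 and 566 CPM in high drip males and to 353, 2354 and 1437 in low drip males. The test of the difference between the sexes gave -2.15 ± 1.10 (SE) for EGR1, with an edgeR adjusted p of 1.00 (unadjusted 0.071).

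**Figure D3:**
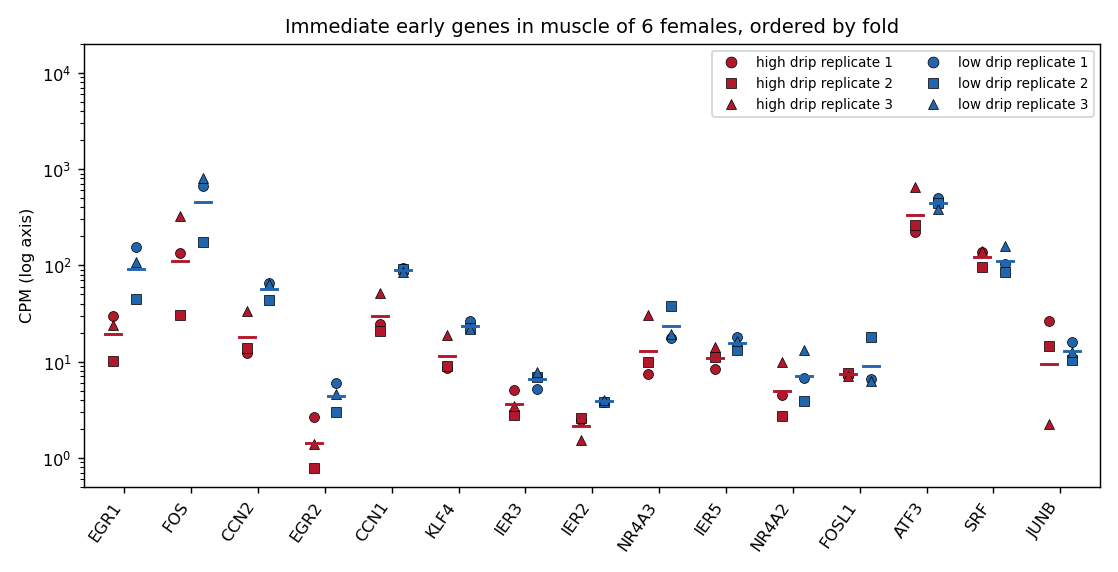
CPM on a log axis of 15 tested immediate early genes in the 6 females, ordered from the lowest to the highest log2 fold; red is high drip, blue is low drip, shapes are replicates and bars are geometric means. On the left EGR1, CCN2, EGR2 and CCN1 show red points below all blue points, and on the right ATF3, SRF and JUNB overlap.

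Genes outside the list were also among the 12 with the smallest p and lower values in high drip, and none passed edgeR's adjustment. CXCL2, a neutrophil-attracting chemokine, was at 1.71, 1.56 and 2.27 CPM in high drip against 11.5, 3.73 and 9.86, a log2 fold of -2.17 ± 0.42 (SE). NFATC2, a calcium and calcineurin regulated transcription factor, was at 3.86, 6.15 and 5.62 CPM against 15.0, 12.5 and 9.50, a log2 fold of -1.24 ± 0.26. ITGA5, the fibronectin receptor subunit, was at 26.9, 24.5 and 32.3 against 55.6, 51.3 and 38.8 CPM. The adjusted p of these 3 genes in edgeR was 0.536, 0.632 and 0.850, and DESeq2 called CXCL2 (adjusted p 0.0031).

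ADM, a vasodilator peptide gene, was at 2.89, 3.74 and 3.78 CPM against 9.83, 6.86 and 6.22. F3, tissue factor, was at 11.8, 8.25 and 10.8 CPM against 24.4, 22.7 and 13.8. AMOTL2, an angiomotin family member of cell junctions, was at 12.1, 9.26 and 9.18 CPM against 14.4, 19.8 and 18.6. In each of the 3 genes the groups did not overlap, with low drip values 1.73 to 2.19 times the high drip values by the fitted folds. The remaining members of the 12 named genes with the smallest p below 0 were SLC38A3, a glutamine transporter (40.3, 38.1 and 42.9 against 57.7, 56.5 and 65.5 CPM), PPL, periplakin (22.6, 20.6 and 18.2 against 36.4, 32.3 and 28.3), and P4HA3, a collagen prolyl hydroxylase subunit (4.07, 4.44 and 3.02 against 8.41, 5.75 and 11.8).

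Stress genes gave a pattern of single animals. SESN2, sestrin 2, an inhibitor of mTORC1 under amino acid and oxidative stress, was at 4.50, 8.95 and 13.3 CPM in high drip and at 30.0, 71.1 and 4.34 in low drip. Low drip replicates 1 and 2 were high, and replicate 3 was the lowest of all 6. The log2 fold of -1.99 ± 0.75 (SE) became -0.95 without low drip replicate 2, and 1.05 under the filing record. PPP1R15A, which restarts translation after stress, was at 58.2, 47.4 and 123 CPM against 136, 136 and 121, so only high drip replicate 3 reached the low drip level. Of 15 tested genes of unfolded protein and amino acid stress 11 were lower and 4 higher, with a median of -0.05.

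Among genes with higher values in high drip and the 12 smallest p, 11 are liver products and the other is TMEM51. TMEM51, a transmembrane protein of poorly known function, was at 12.0, 10.1 and 18.0 CPM in high drip against 3.82, 5.24 and 5.63 in low drip. The log2 fold was 1.45 ± 0.28 (SE), with an edgeR adjusted p of 0.536, and DESeq2 called it (adjusted p 0.00951). In the males it was at 4.73, 10.8 and 4.11 against 3.78, 12.3 and 3.32 CPM, with no such order. The next genes of known function, named after their values were seen, were RASIP1, a Ras-interacting protein of endothelial cells, and NMNAT1, the nuclear enzyme that makes NAD. RASIP1 was at 62.6, 73.2 and 59.7 CPM against 46.3, 42.8 and 41.4, while the 6 males lay between 56.7 and 69.7. NMNAT1 was at 55.9, 35.0 and 45.6 CPM against 30.9, 19.6 and 23.9. Of 8 tested endothelial markers 4 were higher and 4 lower, with a median log2 fold of -0.02.

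The genes of glycogen breakdown and lactate formation differed little, and the few that did not overlap were higher in high drip, except SLC2A4 and PRKAG3. PHKG1, the catalytic phosphorylase kinase subunit, was at 239, 246 and 255 CPM in high drip and at 180, 224 and 151 in low drip. The means were 247 ± 8.24 and 185 ± 36.8 CPM (SD, n = 3 each), and the log2 fold was 0.42 ± 0.17 (SE) with an edgeR adjusted p of 1.00 (unadjusted 0.035). PHKB, its regulatory beta subunit, was at 1456, 1175 and 1549 CPM against 1170, 1032 and 1132, a log2 fold of 0.33 ± 0.16. Those 2 were the only members of the 14 tested glycogen genes whose groups did not overlap, and 9 of the 14 were higher and 5 lower, with a median of 0.08.

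PYGM, muscle glycogen phosphorylase itself, was at 22530, 23450 and 26690 CPM against 22870, 17130 and 27410, with both the lowest and the highest value in low drip. GYS1, muscle glycogen synthase, was at 788, 743 and 855 against 788, 650 and 1174 CPM. SLC2A4, the insulin-responsive glucose transporter, was at 5.46, 7.01 and 5.29 CPM against 7.54, 8.06 and 8.68. LDHA, which makes lactate from pyruvate, was at 19440, 19010 and 19020 CPM in high drip and at 14270, 15860 and 17680 in low drip. The 3 high drip values were nearly equal and above all low drip values, at a log2 fold of 0.27 ± 0.16 (SE) that is within 2 SE of 0. Of 13 tested glycolysis and lactate genes 9 were higher and 4 lower, with a median of 0.15, which was 0.05 without low drip replicate 2 and -0.05 under the filing record.

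PRKAG3 (ENSSSCG00000016200) was at 122, 125 and 127 CPM in high drip and at 167, 148 and 184 CPM in low drip. High drip animals were tightly grouped at 125 ± 2.86 and low drip animals lay above them at 167 ± 18.0 (SD, n = 3 each). The log2 fold was -0.42 ± 0.14 (SE), with an edgeR adjusted p of 1.00 (unadjusted 0.016), and it stayed between -0.49 and -0.34 when any 1 of the 6 animals was left out. With log2 ALB as a term over 12 animals it was 0.41 ± 0.26. ALB levels of the high and low drip females did not overlap, so such a fit cannot separate ALB from drip in them. The other gamma subunits overlapped. PRKAG1, named after its values were seen, was at 49.0, 44.2 and 49.4 against 48.3, 54.4 and 51.3 CPM. PRKAG2 was at 16.6, 22.4 and 17.2 against 20.6, 35.4 and 17.4 CPM. Of the 10 tested genes of the kinase and its activators 3 were higher and 7 lower, with a median of -0.09, and PRKAG3 alone did not overlap.

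Fibre type genes overlapped between the groups, with 1 exception. MYL1, the fast myosin light chain, was at 22820, 22500 and 28590 CPM in high drip against 20990, 20630 and 21380 in low drip and was the only one of 8 tested fast fibre genes that did not overlap, at a log2 fold of 0.23 ± 0.17 (SE). PVALB, the calcium buffer of fast fibres, was at 176, 202 and 25.1 against 43.6, 86.8 and 50.1 CPM. All 6 tested slow fibre genes had log2 folds below 0, with a median of -0.19, but none was apart and the median was 0.06 without low drip replicate 3. Their most abundant members, TNNC1 (3152, 3136 and 4550 against 3808, 3191 and 4374 CPM), TNNT1 (2709, 2688 and 4005 against 3023, 2800 and 4260) and MYL3 (1359, 1614 and 1781 against 1741, 1280 and 1743), overlapped fully. The calpain proteases, which cut myofibrils after death, also overlapped: CAPN1 was at 166, 120 and 126 against 128, 132 and 177 CPM, and CAPN3 at 1688, 1131 and 1514 against 1498, 1254 and 1551.

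Lipogenic and matrix genes were mostly lower in high drip by small amounts. GPAM, the first enzyme of triglyceride synthesis, was at 20.4, 18.9 and 27.7 CPM against 30.6, 40.1 and 32.7, a log2 fold of -0.63 ± 0.20 (SE). ACLY, which supplies acetyl-CoA and is named here because it was the other lipid gene that did not overlap, was at 9.64, 11.0 and 6.91 against 13.0, 13.4 and 11.3 CPM. FASN, fatty acid synthase, was at 23.6, 38.4 and 16.2 against 48.6, 37.7 and 38.5 CPM, where only high drip replicate 2 reached the low drip range. SCD, stearoyl-CoA desaturase, was at 154, 130 and 44.8 against 166, 79.8 and 146 CPM, and PLIN1, the lipid droplet coat of fat cells, at 3.53, 10.7 and 3.35 against 11.9, 4.94 and 6.45. Both overlapped, and over the list 10 of 16 were lower and 6 higher, with a median of -0.23. Leaving out any 1 of the 6 animals moved that median by over 1.5 times, from -0.45 without high drip replicate 2 to -0.03 without low drip replicate 1. Under the filing record it was -0.51, with 4 members apart and lower.

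Extracellular matrix genes were lower for 24 of the 27 tested and higher for 3, where 50.2% of all features were lower, but the median log2 fold was only -0.19 and 2 members did not overlap. The median was -0.07 without low drip replicate 2, -0.08 without high drip replicate 1 and -0.37 without high drip replicate 2. Under the filing record it was -0.10 with 0 members apart. It was -0.61 with ALB as a term over 12 animals, a fit that cannot separate ALB from drip in the females. The 2 members that did not overlap were TNXB and COL15A1. TNXB, tenascin-X, was at 38.4, 45.9 and 35.3 CPM against 48.4, 52.8 and 72.5. COL15A1, a basement membrane collagen named after its values were seen, was at 41.4, 41.0 and 41.2 against 47.8, 43.6 and 47.6. THBS1, a matrix protein that the same stimuli as the immediate early genes switch on, was at 46.9, 27.9 and 65.7 CPM against 149, 101 and 46.6. The abundant COL3A1 (1814, 2748 and 1836 against 2092, 2965 and 2053 CPM), COL1A2 (621, 1036 and 691 against 782, 1026 and 874) and DCN (351, 618 and 570 against 512, 595 and 445) overlapped. In bulk muscle, fewer cells of a type and less RNA per cell cannot be told apart.

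Glucocorticoid responsive genes lay in both directions. FKBP5, a receptor co-chaperone that cortisol induces, was at 61.8, 71.0 and 82.0 CPM in high drip and at 148, 173 and 70.5 in low drip. Low drip replicate 3 lay inside the high drip range, and the log2 fold of -0.87 ± 0.29 (SE) had an edgeR adjusted p of 1.00 (unadjusted 0.014). It was 0.14 under the filing record. ANGPTL4, a lipoprotein lipase inhibitor that glucocorticoids and fatty acids induce, went the other way at 52.2, 58.5 and 20.7 against 23.6, 22.2 and 18.3 CPM. AGT, angiotensinogen, was at 16.3, 19.3 and 12.3 against 31.1, 21.7 and 17.6 CPM, and PDK4, which spares glucose in fasting, ranged from 784 to 2890 against 849 to 3161. NR3C1, the receptor gene, was at 52.7, 58.8 and 60.0 against 54.0, 49.3 and 59.7 CPM. Of the 12 tested genes 4 were higher and 8 lower, with a median of -0.16, and 0 did not overlap. That median was -0.36 without high drip replicate 3 and -0.01 under the filing record.

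In the immune lists single animals stood out. All 6 tested lymphocyte markers had folds above 0, with a median of 0.88 (0.54 without high drip replicate 1), and CD2, a T cell receptor partner, was at 4.50, 3.81 and 1.30 CPM against 2.40, 1.51 and 0.587. CD4 was at 4.71, 2.10 and 3.35 against 2.51, 1.41 and 1.64 CPM. The 12 measured lymphocyte markers summed to 32.6, 24.0 and 9.07 CPM in high drip and to 14.9, 10.5 and 7.16 in low drip, so replicates 1 and 2 were high and replicate 3 was not. LYZ, lysozyme, was at 29.8 CPM in high drip replicate 1 and between 1.42 and 10.6 CPM in the other 5 females, and 7 of 9 tested macrophage markers were higher.

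Interferon response genes were lower in 12 of 13 tested, with a median of -0.35, and this rested on low drip replicate 3, without which the median was 0.07. There MX1, an antiviral GTPase, was at 30.6 CPM against 7.02 to 12.6 in the other 5 females, MX2 at 24.6 against 3.86 to 7.78, and OAS2 at 64.2 against 16.3 to 38.2. HBB, the beta chain of haemoglobin and a mark of blood in the sample, was at 61.0, 35.6 and 85.2 CPM in high drip against 49.4, 26.3 and 20.6 in low drip, a log2 fold of 0.92 ± 0.37 (SE) with an edgeR adjusted p of 1.00, and 0.61 without high drip replicate 3. The 6 males lay between 44.3 and 85.7 CPM. The part of blood in these results was not tested.

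Housekeeping lists had small shifts. Cytosolic ribosome genes were higher for 18 of 19 tested, with a median log2 fold of 0.07, nuclear oxidative phosphorylation genes for 22 of 28 (0.05), redox and metallothionein genes for 15 of 18 (0.14) and proteasome genes for 12 of 15 (0.06), against 49.8% of all features. In these 4 lists only 1 gene, of the oxidative phosphorylation list, did not overlap. Heat shock genes (median 0.03), calcium release and coupling genes (0.00) and water, ion and acid transport genes (0.01) were centred on 0. Clock genes were lower for 10 of 15 (-0.13), but with 1 animal left out the median ran from -0.23 without high drip replicate 3 to 0.003 without high drip replicate 2, and it was 0.13 under the filing record, where 2 members were apart and higher.

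**Figure D4:**
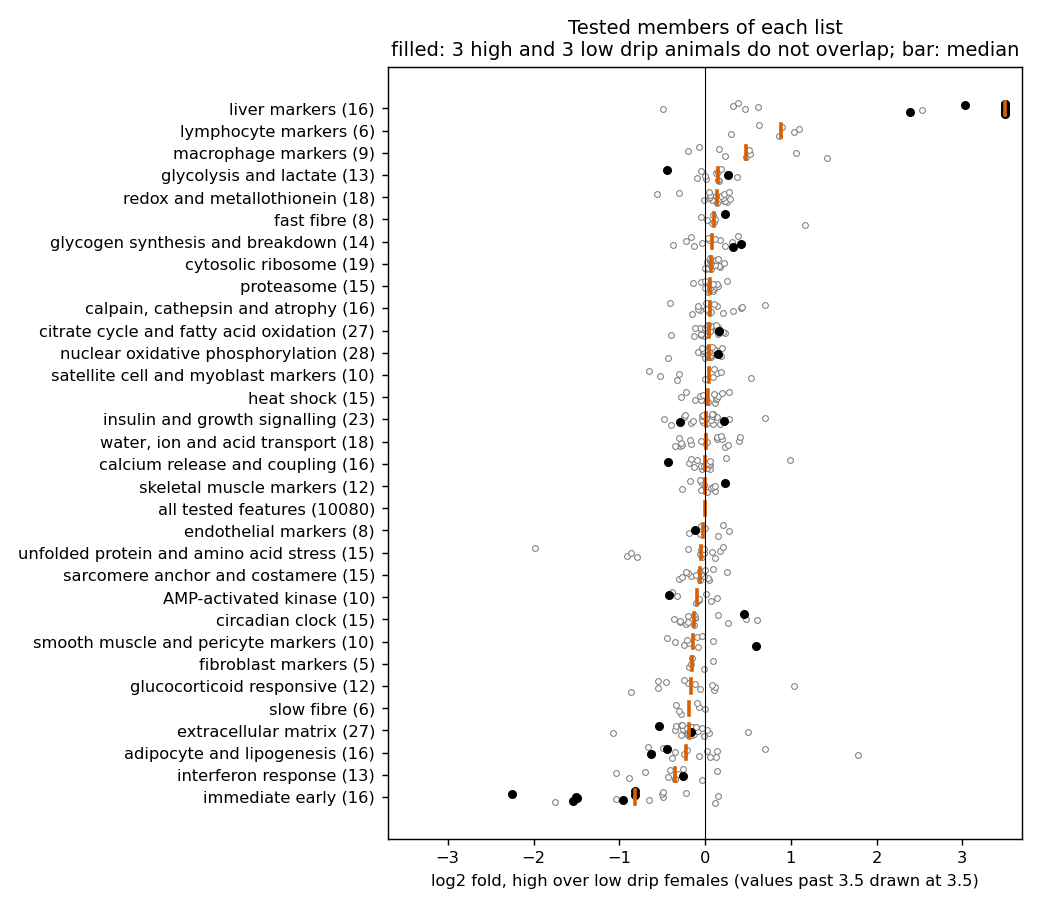
Each row is a gene list with 5 or more tested members (number in brackets), each point a member's log2 fold of high over low drip females; filled points are members whose 3 high and 3 low drip animals do not overlap and orange bars are medians. The immediate early list at the bottom has 7 filled points and a median of -0.81, the liver list at the top has a median of 4.38 drawn at the edge, and most other lists are centred within 0.25 of 0.

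The region tables count 770 features in the studied chromosome regions, 329 with Ensembl identifiers and 441 named HSMMG with a number, whose nature the sources used here do not give. Of 442 tested with edgeR, 0 (0%) passed adjustment and 17 (3.85%) had an unadjusted p under 0.05, 6 higher (1.36%) and 11 lower (2.49%). limma voom and DESeq2 each called 1, CYP2E1. The groups did not overlap for 12 higher (2.71%) and 22 lower (4.98%), 34 in all (7.69%), also below the share of about 0.1 that random labels would give. CPM here are of the region total, and 1 unnamed gene, ENSSSCG00000000084, took 31.0%, 29.9% and 34.3% of the region counts in high drip and 27.3%, 27.2% and 26.1% in low drip. Its log2 fold was 0.36 ± 0.14 (SE) in the region tables and 0.33 ± 0.17 in the whole-genome tables.

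CYP2E1 had the smallest p of the region fit, at 75.8, 245 and 101 CPM of the region against 0 in each low drip female. Its high drip mean was at least 7.06-fold higher with 3 reads per library as the floor. Among features with higher values in high drip, HSMMG357 came next at 114, 86.6 and 128 CPM against 50.1, 32.9 and 13.3, followed by ENSSSCG00000000084. Then came HSMMG305 at 94.8, 76.9 and 108 against 50.1, 19.7 and 53.1, and HSMMG323 at 164, 173 and 196 against 25.1, 39.5 and 146. HSMMG419 was at 297, 245 and 236 against 75.2, 158 and 193. All of these were apart, with an edgeR adjusted p of 0.138 for CYP2E1 and of 0.775 or above for the others.

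Of those lower, HSMMG97 had the largest fold, at 101, 19.2 and 47.2 CPM against 251, 105 and 286, a log2 fold of -1.97 ± 0.58 (SE). HSMMG203 was at 430, 341 and 506 against 733, 855 and 598. SLC20A2, a phosphate transporter, was at 367, 418 and 458 CPM against 539, 1269 and 684, where low drip replicate 2 was highest. PRKAG3 was at 7173, 7707 and 7940 CPM of the region against 9610, 9682 and 10440, a log2 fold of -0.39 ± 0.13. INPP5A, an inositol phosphate phosphatase that ends calcium signals and is named after its values were seen, was at 1650, 1962 and 2036 against 2294, 3137 and 2352. TNRC6B, a partner of Argonaute in microRNA silencing, was at 120, 216 and 263 against 295, 302 and 326, and OTUD7B, a deubiquitinase, overlapped at 3444, 3630 and 4071 against 3667, 4808 and 3501.

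PRKAG3 was 1 of the 22 region features (4.98%) with all high drip females below all low drip females. HSMMG97, HSMMG203, SLC20A2, INPP5A and TNRC6B above also had this order, so it was not particular to the 3 HSMMG features given next. HSMMG175 was at 1858, 1789 and 1975 CPM in high drip and at 3579, 2203 and 2863 in low drip. HSMMG176 was at 158, 164 and 148 against 401, 224 and 319. HSMMG187, named after its values were seen, was at 6314, 7929 and 7792 against 9215, 8840 and 9307, close to the level of PRKAG3 itself. Their log2 folds were -0.63 ± 0.20, -1.01 ± 0.30 and -0.32 ± 0.14 (SE). Whether their reads are shared with PRKAG3 cannot be told from the tables.

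The drip differences of females and males were set against each other in 1 fit. Of 10627 features in the fit of all 12 animals, 0 (0%) had an edgeR adjusted p under 0.05 for the drip difference of females less that of males, 371 (3.49%) had an unadjusted p under 0.05 and limma voom called 0, while DESeq2 called 7. Of 485 region features 27 (5.57%) had an unadjusted p under 0.05 and 0 (0%) passed. In the males' own fit 4.54% of features were apart with higher and 5.07% with lower values in high drip. In the 12-animal fit, features apart in females numbered 734 and in males 1024, with 15 higher in both, 11 lower in both and 35 in opposite directions. The ALB values of the males were 26.6, 1.90 and 0.366 CPM in high drip and 2.35, 56.4 and 40.0 in low drip, so liver transcripts were mixed over the drip levels there. The difference between the sexes was 8.91 ± 2.04 (SE) on the log2 scale for ALB, with an edgeR adjusted p of 1.00.

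PRKAG3 had folds of opposite sign in the sexes, though the groups overlapped in males. In males it was at 94.4, 157 and 185 CPM in high drip and at 119, 69.4 and 75.0 in low drip, a log2 fold of 0.73 ± 0.28 (SE) against -0.42 ± 0.14 in females. The difference was -1.15 ± 0.34 in the whole-genome tables (edgeR adjusted p 1.00, unadjusted 0.0044) and -1.04 ± 0.31 in the region tables (adjusted p 0.383). With each animal left out in turn, the region difference ran from -0.80 without high drip replicate 6 to -1.26 without high drip replicate 4, both males. It passed adjustment only in the latter fit (-1.26 ± 0.25, edgeR adjusted p 0.036), which leaves out the high drip male with the lowest PRKAG3 level. With ALB as a term the region difference was 0.01, in a fit where ALB and drip coincide in the females. HSMMG175 differed between the sexes by -2.48 ± 0.57 with an edgeR adjusted p of 0.202 and a DESeq2 adjusted p of 0.0037, and by -0.73 with ALB as a term. RABGGTA, a subunit of the enzyme that attaches lipid to Rab proteins, was at 41.8, 40.1 and 39.1 against 45.4, 43.0 and 47.5 CPM in females and at 39.0, 49.0 and 41.3 against 33.4, 28.5 and 26.1 in males, and SAT2, a thialysine acetyltransferase, was at 5.14, 4.83 and 4.32 against 3.82, 8.27 and 7.51 in females and at 6.09, 5.58 and 6.40 against 2.86, 2.54 and 3.50 in males. Neither passed adjustment.

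SLC12A2, NOVA1, TBC1D7 and IRS1 did not overlap between high and low drip males and overlapped in females. They come from a list of genes chosen with earlier results of these data known, so this order is a description and not independent support. In the males' own fit 4.54% of all features were apart with higher and 5.07% with lower values in high drip. SLC12A2, the sodium, potassium and chloride cotransporter that sets cell volume, was at 66.9, 54.4 and 75.5 CPM in high drip females against 66.2, 89.7 and 67.1 in low drip females, a log2 fold of -0.18 ± 0.19 (SE), against 65.3, 47.3 and 51.8 and 127, 100 and 133 in males. The difference of the sexes was 0.95 ± 0.26, unadjusted p 0.0028 and edgeR adjusted p 1.00. NOVA1, a splicing factor, was at 1.28, 3.50 and 1.19 against 2.62, 2.42 and 2.58 CPM in females. TBC1D7, a subunit of the TSC complex, was at 21.9, 32.9 and 21.7 against 18.6, 16.5 and 37.3, and IRS1, the insulin receptor substrate, at 50.5, 75.3 and 48.6 against 46.0, 30.7 and 102, where low drip replicate 3 held the highest value of both. SMDT1, a regulator of the mitochondrial calcium uniporter, was at 35.0, 16.7 and 51.8 against 18.2, 13.3 and 20.5 CPM, a log2 fold of 0.99 ± 0.36 in the whole-genome tables and 0.52 ± 0.40 in the region tables. Without high drip replicate 3, the highest of the 6, these were 0.59 and 0.10.

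**Figure D5:**
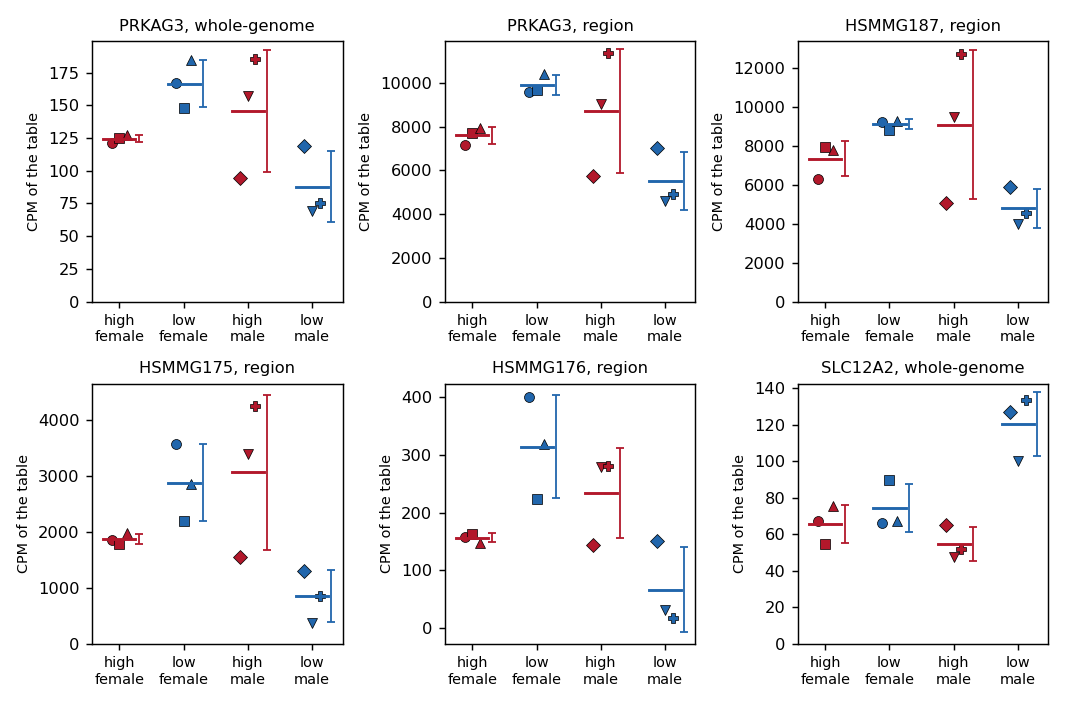
CPM of the named table in each of the 12 animals by drip level and sex, with horizontal bars for means and vertical bars for 1 SD over 3 animals. PRKAG3 and 3 HSMMG features are lower in high than in low drip females and mostly higher in high than in low drip males, while SLC12A2 is lower in high drip males and overlaps in females.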

How the data were processed

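Libraries were TruSeq RNA from muscle, sequenced on an Illumina GAIIx, per the labels' protocols. The authors deposited read counts per feature, a whole-genome and a region table for each animal; the submitters' processing notes name TopHat2 2.0.3, Bowtie 0.12.7.0, HTSeq and the build Sscrofa10.2. Rows that name no feature (24.2% to 28.0% of alignments without a feature, 13.4% to 15.5% not unique, 0.669% to 0.784% ambiguous) were left out. Of 20300 Ensembl identifiers 10349 had a symbol. Strand use in counting is not given in the sources used here, so reads of overlapping and antisense genes cannot be told apart.

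In R 4.3.3, edgeR 4.0.16 (filterByExpr, TMM, quasi-likelihood, Benjamini-Hochberg, threshold 0.05) was run on the 6 females, and as a drip by sex term on 12 animals. DESeq2 1.42.0, limma 3.58.1 (voom), no filter, DESeq2's scaling, each replicate left out, age, the filing record and log2 ALB (CPM plus 0.5) as a term were tried. The fit was tested on simulated data: of 200 changed among 10080 features it made 116 calls, 12 of them false.

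The members and gene lists were chosen with earlier results of these data known. Named genes are the 12 symbols with lowest p in each direction, and 6 each way of the region fit and of the sex difference. To these come the 3 most abundant members and 2 of lowest p in each list. A further list of genes was always given, among them PRKAG3, PHKG1, FOS, FKBP5, PLIN1, SLC12A2 and IRS1. That list too was chosen with earlier results of these data known. Others are said to be chosen after their values were seen. Lists were described and not tested. No sequence is printed.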

Additional observations from a re-analysis of the deposited data

Results flagged for a closer look

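The 3 females of a drip group and the 3 males of a drip group are too few for a search for outlying animals. RABGGTA had all high drip females below all low drip females and all high drip males above all low drip males, a difference between the sexes of -0.73 on the log2 scale. HSMMG175 in the region tables had the same opposite order, at -2.48, which was -0.73 with ALB as a term. The sex difference was tested for both with edgeR, and neither passed adjustment (adjusted p 1.00 and 0.202). Over all features 35 of 10627 in the whole-genome tables and 3 of 485 in the region tables had such opposite orders.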

How the results depend on the processing

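No paired analysis was run, because replicate numbers were given in accession order and do not show whether any animals are paired. The number of features called in females was 0 in the whole-genome tables, 20 without a filter on low counts, 13 with DESeq2, 5 with age as a term and 0 to 2 with each replicate left out. THBS2 and ENSSSCG00000026009 passed without high drip replicate 1, and ALB and ENSSSCG00000001229 without high drip replicate 2. CCN1 and ENSSSCG00000028674 passed without high drip replicate 3. In the region tables it was 0, 1 without a filter, 1 with limma voom, 1 with DESeq2 and 0 to 1 with each replicate left out. For females less males it was 0 in the whole-genome tables and 7 with DESeq2, and 0 in the region tables, 2 with DESeq2 and 0 to 4 with each replicate left out: 4 without high drip replicate 4 and 3 without low drip replicate 4. Non-overlapping features numbered 688, 665 under the filing record, 632 without TMM factors and 1052 of 15313 without a filter. Settings chosen after the data were seen are those for non-overlap. Under the filing record log2 folds turned to -2.23 for ALB, -3.12 for TF, -2.57 for AHSG, -2.07 for AMBP, -2.29 for FGG, -2.23 for GC, -2.34 for HRG, -0.99 for RBP4 and 1.05 for SESN2, since 2 animals then change groups. With ALB as a term they turned to 0.41 for PRKAG3 (0.36 in the region tables), 0.32 for SLC38A3, 0.62 for HSMMG175 and 0.47 for HSMMG187. ALB coincided with drip in the females, so that fit cannot separate the 2, and the cause was not tested. Over the named genes 1512 of 1653 alternative values kept direction and side of the threshold, 39 passed it, 88 changed sign with a fold within 1 SE of 0 in either fit, and the 14 above turned.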

Other observations

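Of the 10627 features tested in 12 animals, 15 were higher and 11 lower in every high drip animal than in any low drip animal of its own sex. Groups were apart for 734 features in females and for 1024 in males, and 35 had opposite orders. The same order in both sexes was thus no more common than the opposite order, and the genes below are examples only. The 3 named genes among them that ranked first by p in females are given, chosen after their values were seen. SLC30A2, a zinc transporter, was at 3.32, 2.41 and 3.24 CPM in high drip females against 4.92, 6.45 and 6.34, and at 2.27, 2.37 and 1.65 in high drip males against 2.96, 3.39 and 3.94. LIX1L was at 23.0, 21.2 and 24.3 against 18.1, 15.7 and 18.1 CPM in females, and at 25.3, 22.4 and 28.4 against 21.6, 19.2 and 20.3 in males. NDRG3, a protein known to bind lactate, was at 5.25, 6.69 and 5.18 against 3.60, 4.13 and 3.52 CPM in females, and at 4.09, 6.17 and 4.20 against 4.08, 3.77 and 2.87 in males, where high and low drip replicate 4 were almost equal. None passed edgeR's test in females (adjusted p 1.00 for each).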
